A study of Mus musculus with 9 samples.

Results

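The DNAJ (HSP40) cochaperone genes were examined in erythroblasts of mouse embryos that carry 2, 1 or 0 copies of the Th3 allele. Members were the genes whose symbol begins with Dnaja, Dnajb or Dnajc and a number and which had a probe set of their own, and 1 probe set per gene was used, the one with the highest mean over the 9 arrays. This gave 45 genes of 19938 named on the array, of which 4 are class A, 13 class B and 28 class C. The groups were Th3/Th3, Th3/+ and wild type, with 3 biological replicates and 1 array each. All came from crosses of Th3/+ parents on a 129SV background backcrossed for 9 generations to C57BL/6. Wild type and mutant samples thus share that background, though sequence linked to the Th3 allele can differ between them. Erythroblasts were sorted from livers of E14.5 embryos as CD71+Ter119+FSChigh cells, that is, by surface markers and large size. In the Th3 allele, a model of beta-thalassemia, the adult beta-globin genes are deleted. Litters and the number of embryos behind each replicate are not stated, so p-values measure only the spread between these samples.

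DNAJ proteins carry a J domain, which binds HSP70 chaperones and triggers their ATP hydrolysis, so that HSP70 closes on an unfolded client. Each HSP70 works with several DNAJ partners, which choose the client or fix the place of action: the cytosol, the endoplasmic reticulum, the mitochondrion, the ribosome or the coated vesicle. Class A and B proteins resemble the bacterial DnaJ in their further domains, while class C proteins share the J domain alone. In red cell precursors chaperones of this system handle the large load of globin chains, and in beta-thalassemia alpha chains without a partner accumulate and precipitate.

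Values are log2 expression values, and a difference of 1 is 2-fold. Values under the 40th percentile of an array, which lay at 4.52 to 4.62, were treated as near background. The second principal component set Th3/Th3 replicate 1 (25.5) and Th3/+ replicate 1 (20.5) apart from the other 7 arrays (-14.9 to 7.7), and results that rest on them are given with and without them. Of 8 erythroblast markers tested, 6 fell in Th3/Th3 cells, and their summed linear signal was 13800 to 16900 in Th3/Th3, 25500 to 26500 in Th3/+ and 25200 to 28800 in wild type arrays. Of 8 macrophage markers tested 1 fell, with sums over the 10 listed of 313 to 345, 351 to 556 and 350 to 513 in Th3/Th3, Th3/+ and wild type, and 1 of the 10 was near background on every array. Among 9 hepatoblast, 4 megakaryocyte, 4 granulocyte, 2 endothelial and 1 lymphoid markers tested, limma called 0, and 2 megakaryocyte markers had an unadjusted p under 0.05. The megakaryocyte sums were 510 to 630 in Th3/Th3, 751 to 950 in Th3/+ and 690 to 996 in wild type arrays. The part of these shifts in the DNAJ results was not tested, and in sorted bulk samples fewer cells of a type and less RNA per cell cannot be told apart.

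In Th3/Th3 against wild type cells 7 DNAJ genes rose and 1 fell. The rises were in the cytosolic Dnaja1, Dnajb1, Dnajb6 and Dnaja4, in Dnajb9 of the endoplasmic reticulum, and in Dnajc17 and Dnajc24, and the fall was in Dnajb13. Of the 45 genes, 41 passed the filter on low values and were tested. The 8 calls are 19.5% of the 41, against 12.3% of all 17742 probe sets tested (limma, adjusted p under 0.05), and the 7 rises are 17.1%, against 7.31% of all (4.98% of all fell). All probe sets were not limited to named genes or to 1 probe set per gene, as the members were. With a stricter filter, at the 60th percentile, 8 of 38 members were called, against 2469 of 11963 probe sets, a similar share. As higher, 7 of those 38 were called, against 1475 of the 11963. An unadjusted p under 0.05 was found for 16 of the 41, against 25.7% of all. The median difference was 0.27 over the 41 genes and 0.0 over all probe sets. The mean was higher in Th3/Th3 for 30 of the 41 (73.2%, against 49.9% of all). In 18 of the 41 the Th3/Th3 and wild type arrays did not overlap (43.9%, against 27.5% of all). The remaining 4 genes, Dnajb7, Dnajc22, Dnajc5b and Dnajc5g, were near background on all 9 arrays and were not tested.

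The cytosolic and nuclear HSP70 partners had 4 of 10 members that rose in Th3/Th3 against wild type and 0 that fell, with a median difference of 0.44. Over all probe sets 7.31% rose and 4.98% fell. Dnaja1, a class A partner of the constitutive HSP70, held 11.84, 12.12 and 12.15 in Th3/Th3, 11.11, 11.41 and 11.20 in Th3/+, and 10.41, 10.56 and 10.73 in wild type cells. The 3 genotypes did not overlap, and the Th3/+ arrays lay between the others. It rose 2.77-fold in Th3/Th3 (log2 difference 1.47, SE 0.12, limma adjusted p = 0.000187). Dnajb1, the main stress-inducible HSP40, held 11.20, 10.65 and 10.48 in Th3/Th3, 10.04, 10.38 and 10.19 in Th3/+, and 9.47, 9.47 and 9.62 in wild type cells. Its genotypes did not overlap either, and its highest value was in Th3/Th3 replicate 1, the array in which Dnaja1 was lowest among the Th3/Th3 arrays. Dnajb1 rose 2.39-fold (1.26, SE 0.18, adjusted p = 0.00238).

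Dnajb6, which keeps aggregation-prone proteins soluble, held 9.16, 9.54 and 9.60 in Th3/Th3, 8.80, 8.99 and 8.98 in Th3/+, and 8.84, 7.96 and 8.01 in wild type cells. Wild type replicate 1 lay within the Th3/+ range, while all Th3/Th3 arrays were above all wild type arrays. The rise was 2.25-fold (1.17, SE 0.23, adjusted p = 0.011). Dnaja4, another class A member, held 10.24, 9.84 and 10.06 in Th3/Th3, 9.84, 9.84 and 10.09 in Th3/+, and 9.31, 9.42 and 9.59 in wild type cells. Here Th3/Th3 and Th3/+ overlapped, and both lay above wild type. Dnaja4 rose 1.52-fold (0.61, SE 0.14, adjusted p = 0.0198), a call lost without Th3/Th3 replicate 3, wild type replicate 1 or wild type replicate 2 (adjusted p = 0.0564, 0.0739 and 0.0647). In the other members of the group Th3/Th3 lay 0.13 below to 0.45 above wild type without passing the test. They include Dnajc5, the cysteine string protein (0.45, adjusted p = 0.103), Dnajc7, which also binds HSP90 (0.44, adjusted p = 0.169), Dnaja2 (0.36, adjusted p = 0.172) and Dnajb4 (-0.13, adjusted p = 0.391).

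**Figure D1:**
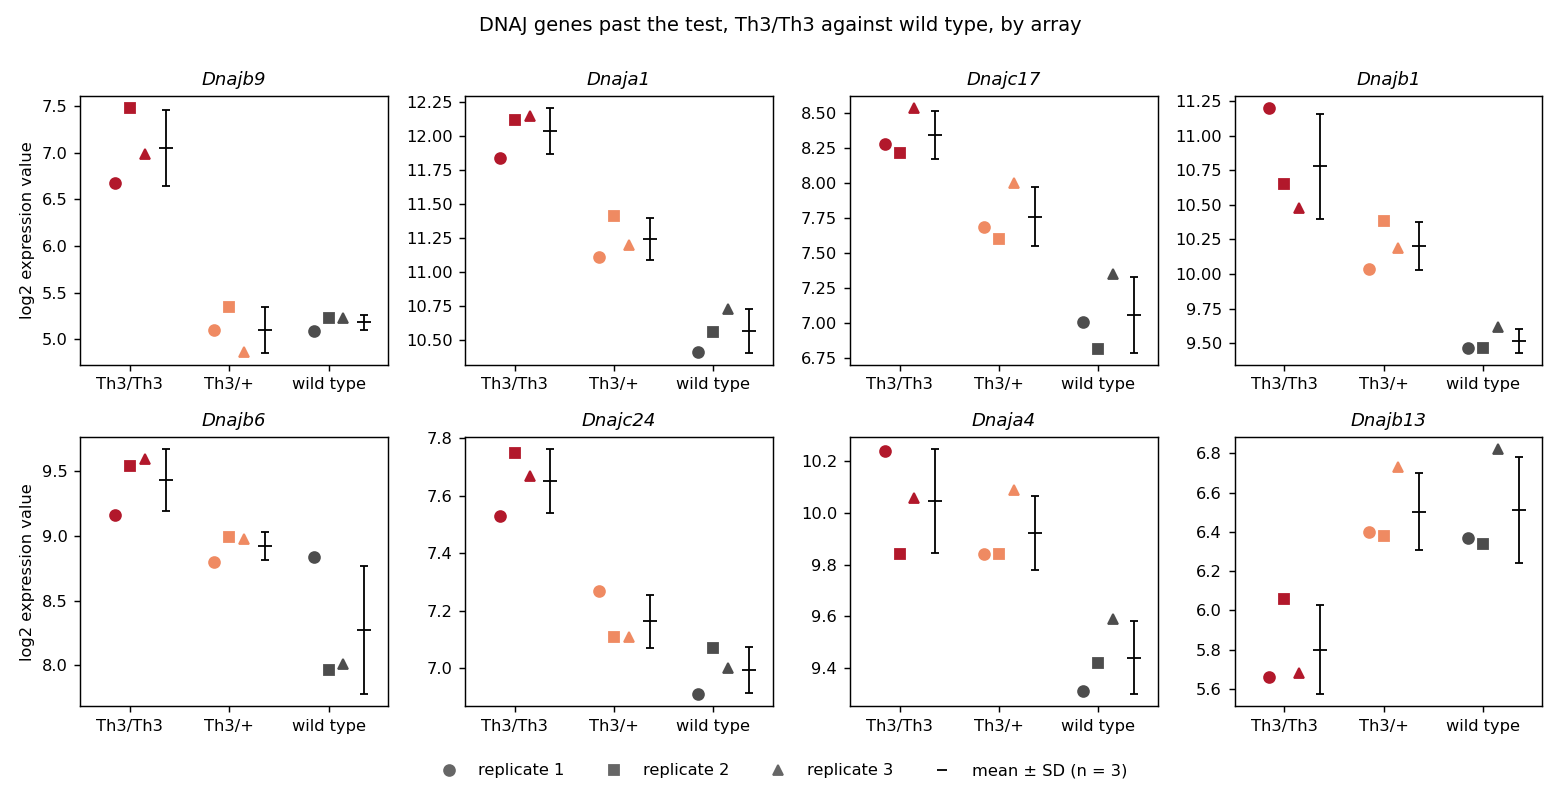
Log2 expression values (y axis) of the 8 DNAJ genes past the test in Th3/Th3 against wild type, by genotype (x axis). Symbols are replicates 1 to 3, and the bar at the right of each genotype is the mean ± SD (n = 3). Dnaja1, Dnajb1, Dnajc17 and Dnajc24 have Th3/+ arrays between the other genotypes, while in Dnajb9 and Dnajb13 the Th3/+ arrays overlap those of wild type.

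Promoter windows from RefSeq (GRCm38.p6, 250 bases before to 50 after the start) were available for 37 of the 45 genes, among them all 8 called. They were searched for the paired heat shock element, GAANNTTC or TTCNNGAA, which the heat shock factors bind and which reads the same on either strand. Matches were present in Dnaja1, Dnaja4 and Dnajb6 among the 8 called genes, and in 3 of 27 other tested genes. Of all 27025 genes with a window, 17% had a match, and of all 32851 windows 15.1% did. Several called genes have more than 1 window, which gives them more room for a match. Dnajb1 had no match in its 2 windows, while Dnajb4, which was not called, had a match. The 3-unit form, GAANNTTC followed directly by NNGAA on either strand, was found in 0.662% of genes and in 1 member, Dnajb6. The 150 bases before the start are shown for the 3 called genes, all on the plus strand, with matches in capitals. In Dnajb6 a GAANNTTC match and a TTCNNGAA match overlap.
Dnaja1, chr4:40722318-40722467: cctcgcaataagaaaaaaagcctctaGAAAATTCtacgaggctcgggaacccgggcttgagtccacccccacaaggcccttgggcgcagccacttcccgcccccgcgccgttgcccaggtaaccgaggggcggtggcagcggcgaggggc
Dnaja4, chr9:54699409-54699558: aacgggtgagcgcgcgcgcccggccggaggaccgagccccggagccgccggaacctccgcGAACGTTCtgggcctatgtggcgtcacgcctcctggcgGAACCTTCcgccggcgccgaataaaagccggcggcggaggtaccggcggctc
Dnajb6, chr5:29735748-29735897: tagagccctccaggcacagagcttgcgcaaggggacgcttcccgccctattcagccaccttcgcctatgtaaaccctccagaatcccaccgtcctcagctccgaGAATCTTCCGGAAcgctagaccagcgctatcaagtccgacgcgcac
Counted from the start, the matches lie at -124 to -117 in Dnaja1, at -90 to -83 and -52 to -45 in Dnaja4, and at -46 to -34 in Dnajb6. Dnaja1 has 3 annotated windows and Dnaja4 has 2, and in each gene the match lies in the window shown only. Dnajb6 has 2, and in the other window, from a later start, the same match lies at -127 to -115.

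Of 11 members of the endoplasmic reticulum, 1 rose and 0 fell in Th3/Th3 against wild type, with a median difference of 0.35. A count of 1 in 11 is near the share over all probe sets, of which 7.31% rose. Dnajb9 (ERdj4), a cochaperone of BiP in the disposal of misfolded proteins, held 6.68, 7.48 and 6.99 in Th3/Th3, 5.10, 5.35 and 4.86 in Th3/+, and 5.09, 5.23 and 5.23 in wild type cells. Th3/Th3 stood clear of both other genotypes, which overlapped each other not far above background. Dnajb9 rose 3.64-fold against wild type (1.86, SE 0.19, adjusted p = 0.000521), the largest difference of any tested DNAJ gene and the 69th in size among all 17742 probe sets. Dnajc3 (P58IPK), a luminal BiP cochaperone that also restrains the kinase PERK, held 8.77, 9.61 and 9.58 in Th3/Th3, 7.87, 8.68 and 8.50 in Th3/+, and 8.62, 8.68 and 8.56 in wild type cells. Replicate 1 was lowest in both Th3/Th3 and Th3/+, and the Th3/Th3 arrays still lay above the others. Its difference of 0.70 did not pass (SE 0.26, adjusted p = 0.125). Dnajb11 (ERdj3), which binds unfolded secretory proteins, lay at 10.60, 10.58 and 10.79 in Th3/Th3, 9.99, 10.39 and 10.36 in Th3/+, and 10.24, 10.30 and 10.40 in wild type cells, again without overlap and without passing (0.35, adjusted p = 0.115). Dnajc10 (ERdj5), a disulfide reductase, and Dnajc16 differed by -0.07 and -0.11 (adjusted p = 0.874 and 0.817).

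Dnajc3 was the 1 member with an endoplasmic reticulum stress element, CCAAT and CCACG with 9 bases between them on either strand, in its window, against 0.137% of all genes with a window. It lies at -105 to -87, in capitals in the 150 bases shown (plus strand).
Dnajc3, chr14:118937782-118937931: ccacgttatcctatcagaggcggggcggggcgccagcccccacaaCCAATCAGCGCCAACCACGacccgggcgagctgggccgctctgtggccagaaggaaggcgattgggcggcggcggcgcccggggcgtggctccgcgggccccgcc
The unfolded protein response element TGACGTGG, on either strand, was found in 0.714% of genes and in 1 member, Dnajc25. Of the 8 called genes 0 held either of these elements in their windows.

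Among 6 members of ribosome, splicing, chromatin and diphthamide functions, 2 rose and 0 fell, with a median difference of 0.24. Of all probe sets 7.31% rose and 4.98% fell. Dnajc17, which associates with pre-mRNA splicing, held 8.28, 8.22 and 8.54 in Th3/Th3, 7.69, 7.60 and 8.0 in Th3/+, and 7.01, 6.82 and 7.35 in wild type cells. No genotype overlapped another, and replicate 3 was highest in each. Dnajc17 rose 2.44-fold (1.29, SE 0.17, adjusted p = 0.00186). Dnajc24 (DPH4), which serves the synthesis of diphthamide on elongation factor 2, held 7.53, 7.75 and 7.67 in Th3/Th3, 7.27, 7.11 and 7.11 in Th3/+, and 6.91, 7.07 and 7.0 in wild type cells. The genotypes were again in order without overlap, with Th3/+ close to wild type. The rise was 1.58-fold (0.66, SE 0.11, adjusted p = 0.0057). Dnajc2, which sits at the ribosome tunnel exit, and the ribosome biogenesis gene Dnajc21 differed by 0.39 and 0.10 (adjusted p = 0.262 and 0.871), the spliceosome component Dnajc8 by 0.02 (adjusted p = 0.922) and the histone chaperone Dnajc9 by -0.21 (adjusted p = 0.271).

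Of 7 mitochondrial members 0 passed the test by limma, and 2 had an unadjusted p under 0.05. Over all probe sets 12.3% passed and 25.7% had such an unadjusted p. Dnajc15, of the protein import motor, held 8.09, 8.10 and 7.53 in Th3/Th3, 7.31, 7.42 and 7.74 in Th3/+, and 7.44, 7.14 and 7.50 in wild type cells (0.55, adjusted p = 0.107). Dnajc11, which is tied to the cristae-organizing complex, held 8.17, 7.80 and 8.09 in Th3/Th3, 8.53, 8.71 and 8.85 in Th3/+, and 8.50, 8.31 and 8.99 in wild type cells (-0.58, adjusted p = 0.0866). These genes thus had the highest and the lowest difference of the group. In both the Th3/Th3 and wild type arrays did not overlap, as in 27.5% of all probe sets. For Dnajc15 the nearest values were 7.53 and 7.50, and its Th3/Th3 arrays overlapped those of Th3/+. Dnaja3 (TID1), the matrix partner of mitochondrial HSP70, lay 0.32 above wild type (adjusted p = 0.361), and Dnajc19 and Dnajc30 differed by 0.05 and 0.03 (adjusted p = 0.872 and 0.935).

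Of 3 tested members of vesicle and GTPase functions, limma called 0 and 0 had an unadjusted p under 0.05. The shares over all probe sets were 12.3% and 25.7%. The 3 members differed by -0.16 to -0.09. They are Dnajc6 (auxilin), which helps uncoat clathrin vesicles and lay at 4.56 to 4.87 over the 9 arrays, the endosomal Dnajc13 (RME-8) and Dnajc27. Among the others Dnajb13, a component of the radial spokes of cilia and sperm tails, held 5.66, 6.06 and 5.68 in Th3/Th3, 6.40, 6.38 and 6.73 in Th3/+, and 6.37, 6.34 and 6.82 in wild type cells. All Th3/Th3 arrays lay below all other arrays, and Th3/+ matched the wild type range. Dnajb13 fell by 0.71 (1.64-fold, SE 0.17, adjusted p = 0.0237). The call was lost without Th3/Th3 replicate 1, Th3/Th3 replicate 3 or wild type replicate 3 (adjusted p = 0.0639, 0.0773 and 0.0746). It was also lost with Xist level as a covariate (adjusted p = 0.0521). That covariate marks each array as high or low in Xist, split at the middle of the range. Dnajb13 lies on chromosome 7 within 10 Mb of the adult beta-globin genes, and a part of sequence linked to the Th3 allele was not tested. Dnajb8, Dnajb3 and Dnajc12 differed by 0.05, -0.28 and 0.24 (adjusted p = 0.840, 0.273 and 0.231).

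**Figure D2:**
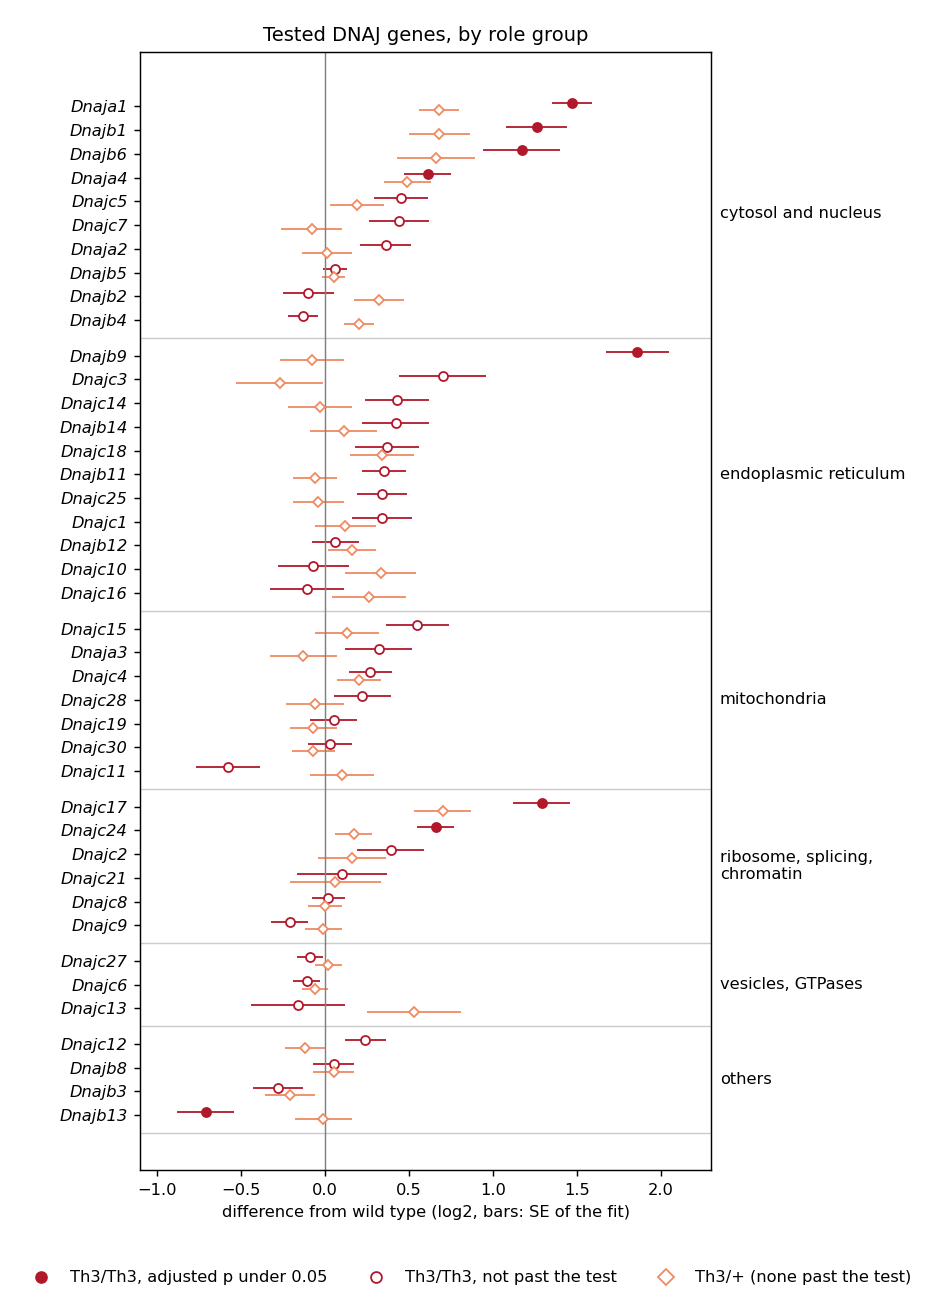
Difference from wild type (x axis, log2, bars are the SE of the fit) of the 41 tested DNAJ genes (y axis, by role group), for Th3/Th3 (circles, filled where past the test) and Th3/+ (diamonds). The 4 called cytosolic genes and Dnajc17 have diamonds between 0.49 and 0.70, while Dnajb9 has its circle at 1.86 and its diamond at -0.08.

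With 1 Th3 allele no DNAJ gene passed the test. In Th3/+ against wild type cells limma called 0 of the 41 genes, against 0.0282% of all probe sets (5 of 17742). An unadjusted p under 0.05 was found for 6 of the 41, against 3.64% of all, and these were Dnaja1, Dnajb1, Dnajb6, Dnaja4, Dnajc17 and Dnajb4. Dnaja1 had the smallest p, with a difference of 0.68 (SE 0.12, adjusted p = 0.358), and it passed when arrays were weighted by quality (adjusted p = 0.0321). The differences of Dnajb1, Dnajb6, Dnaja4 and Dnajc17 were 0.68, 0.66, 0.49 and 0.70. Dnajc24, Dnajb9 and Dnajb13 lay at 0.17, -0.08 and -0.01. In 10 of the 41 genes the Th3/+ and wild type arrays did not overlap (24.4%, against 7.63% of all).

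In Th3/Th3 against Th3/+ cells, which shares its Th3/Th3 arrays with the comparison against wild type, 3 genes rose and 1 fell, 9.76% of the 41 against 7.27% of all probe sets (4.01% higher, 3.26% lower). An unadjusted p under 0.05 was found for 18 of the 41, against 21.1% of all. Dnajb9 was 3.85-fold higher (1.95, SE 0.19, adjusted p = 0.000798), Dnaja1 1.73-fold higher (0.79, SE 0.12, adjusted p = 0.00565) and Dnajc24 1.40-fold higher (0.49, SE 0.11, adjusted p = 0.032). Dnajb13 fell by 0.70 (SE 0.17, adjusted p = 0.037). The call of Dnajc24 was lost in 8 of 20 alternatives, 5 of them with 1 array left out, and that of Dnajb13 in 12 of 20, 7 of them with 1 array left out. Both were lost with Xist level as a covariate (adjusted p = 0.053 for Dnajc24 and 0.080 for Dnajb13) and with only the groups compared (adjusted p = 0.0806 and 0.0566). Below the threshold were Dnajc17 (0.59, adjusted p = 0.0831), Dnajb1 (0.57, adjusted p = 0.0985, and 0.36, adjusted p = 0.15, without Th3/Th3 replicate 1), Dnajb6 (0.51, adjusted p = 0.249) and Dnaja4 (0.12, adjusted p = 0.689, and 0.03 without Th3/Th3 replicate 1). Dnajb4, whose Th3/Th3 arrays (11.03, 11.05 and 11.08) all lay below the Th3/+ arrays (11.45, 11.42 and 11.29), differed by -0.33 (adjusted p = 0.0509).

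Whether Th3/+ cells sat off the midpoint of the other genotypes was tested in the same fit. Limma called 0 of the 41 genes, against 0.0789% of all probe sets, and 8 had an unadjusted p under 0.05, against 7.83% of all. The largest departure was in Dnajb9, whose Th3/+ mean lay 1.01 below the midpoint (difference -1.01, unadjusted p = 0.000166, adjusted p = 0.0832). Dnaja1, Dnajb1, Dnajb6 and Dnajc17 departed by -0.06, 0.05, 0.07 and 0.06. In 4 of the 41 genes the Th3/+ arrays lay between the other genotypes without overlap (Dnaja1, Dnajb1, Dnajc17 and Dnajc24), and this held for 2.80% of all probe sets.

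The number of calls depended on the array of Th3/Th3 replicate 1. Without it 13 genes rose and 0 fell against wild type, where 13.0% of all probe sets were called in either direction and 7.83% as higher. The 7 risen genes passed again, and Dnaja2, Dnajc3, Dnajc5, Dnajc7, Dnajc12 and Dnajc25 passed in addition. Dnajc3 then differed by 0.98 (adjusted p = 0.0249), Dnajc7 by 0.65 (adjusted p = 0.0194) and Dnaja2 by 0.52 (adjusted p = 0.0236). In Dnajc7 that array read 8.34 against 8.88 and 9.04 in the other Th3/Th3 arrays, and wild type held 8.36, 8.22 and 8.35. In Dnaja2 it read 8.76 against 9.21 and 9.27, with wild type at 8.75, 8.79 and 8.63. The array thus lay at the wild type level for Dnajc7 and Dnaja2, though not for Dnajb1 and Dnaja4, in which it was the highest. The choice of genes that passed only without this array favours low values in it. Without both arrays that stood apart 14 genes rose, against 8.80% of probe sets called as higher. Dnajc2 and Dnajc14 then passed too (0.56 and 0.58, adjusted p = 0.0207 and 0.0301), and Dnaja4 did not (adjusted p = 0.0534). Against Th3/+, 8 genes rose and 1 fell without Th3/Th3 replicate 1, where 7.96% of all probe sets were called and 4.55% as higher. That fall was in Dnajc16 (-0.64, adjusted p = 0.0335), which resides in the endoplasmic reticulum. Without both arrays 8 genes rose against Th3/+, where 5.59% were called and 2.97% as higher.

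**Figure D3:**
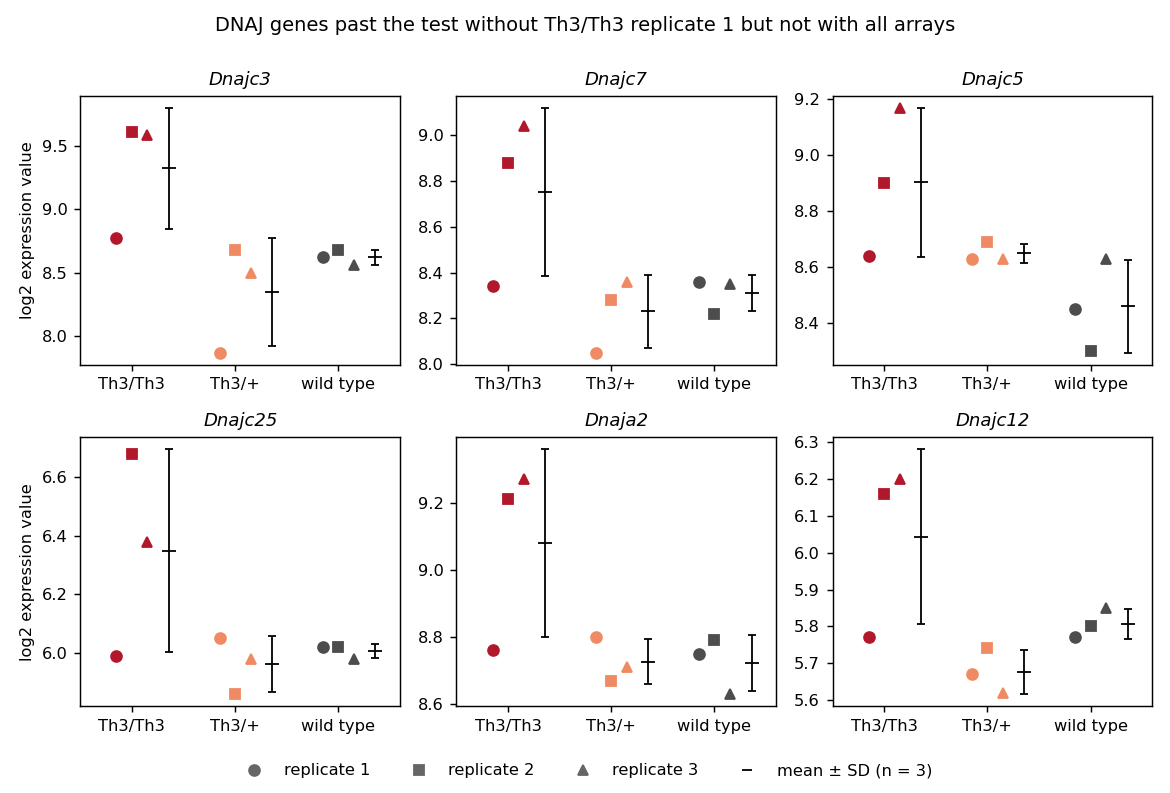
Log2 expression values (y axis) by genotype (x axis) of the 6 DNAJ genes that passed in Th3/Th3 against wild type without Th3/Th3 replicate 1 but not with all arrays. Symbols are replicates 1 to 3 and bars the mean ± SD (n = 3). In each gene replicate 1 (circle) is the lowest Th3/Th3 value, for example 8.77 in Dnajc3 beside 9.61 and 9.58. The way these genes were chosen favours a low replicate 1.

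Several genes were read by more than 1 probe set. Dnajc13 had 15, and in Th3/Th3 replicate 1 the value was at least 1 log2 unit under the mean of replicates 2 and 3 on 5 of them. In Th3/+ replicate 1 this held for 8 of 15, and in wild type replicate 1 for 0 of 15. Over all tested probe sets the shares were 1.32%, 0.812% and 0.254% for Th3/Th3, Th3/+ and wild type. On the probe set with the largest gap Th3/Th3 held 4.93, 8.67 and 8.76, Th3/+ held 5.10, 8.88 and 8.56, and wild type held 9.20, 8.67 and 8.65. These low values all lay in the middle of the identifier order. Of the 15 probe sets 14 were tested, and 1 passed in Th3/Th3 against wild type (0.95, adjusted p = 0.0102), while the others ranged down to -1.39.

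**Figure D4:**
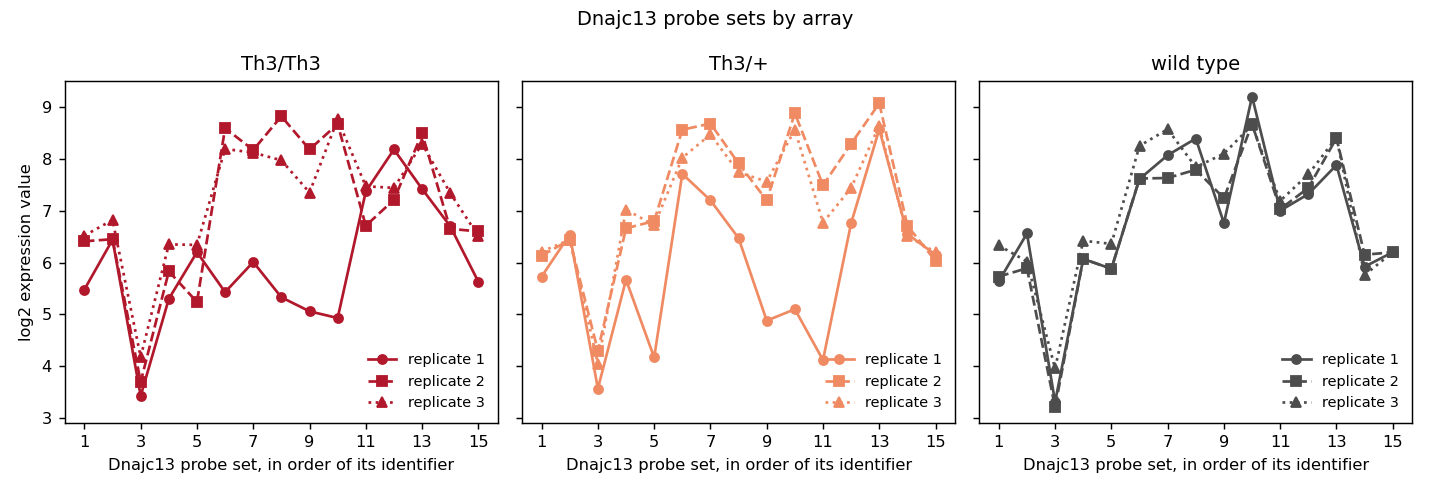
Log2 expression values (y axis) of the 15 Dnajc13 probe sets in the order of their identifiers (x axis), 1 panel per genotype and 1 line per array. Replicate 1 of Th3/Th3 and of Th3/+ drops by up to 3.78 and 3.62 under the mean of the other replicates on the middle probe sets. Replicate 1 of wild type stays within 0.90 of the mean of its other replicates.

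The Dnaja1 probe set used here lies among probe sets of chromosome 5 in the identifier order (8 of 10 neighbours), while the gene is on chromosome 4, so a near-identical copy of the gene may contribute to it. The other 44 members lie among probe sets of their own chromosome. The second Dnaja1 probe set, which lies among those of chromosome 4, held 9.33, 10.55 and 10.28 in Th3/Th3, 8.70, 8.79 and 8.92 in Th3/+, and 8.10, 8.31 and 8.56 in wild type cells, a rise of 1.73 (SE 0.28, adjusted p = 0.00413). A probe set listed for both Dnaja1 and Mir207 held 9.80, 9.49 and 9.70 in Th3/Th3 and 9.98, 9.90 and 9.75 in wild type cells (-0.21, adjusted p = 0.303). The Dnajb6 probe set used is the only one listed for that gene alone. On 4 further probe sets shared with Gm4247 the differences were -0.15 to -0.09 (adjusted p = 0.503 to 0.716). These 4 held similar values (10.19, 10.35, 10.32 and 10.31 in Th3/Th3 replicate 1), so they need not be separate measurements. The Dnajb6 rise was thus seen on the probe set of its own and not on the shared ones. The annotation pairs 2 probe sets with Dnajc3, and both hold the same values, so they count as 1 measurement.

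The partners of the family were read from lists of HSP70 genes and their cofactors, written with earlier results of these data known. The chromosome of their neighbours in identifier order was not checked as for the members, so near-identical copies of these genes may contribute. For comparison with the counts below, 7.31% of all probe sets rose in Th3/Th3 against wild type. In Th3/+ against wild type 0.0282% of all were called in either direction. Of 14 HSP70 and HSP110 genes tested 5 rose and 0 fell in Th3/Th3 against wild type, with a median of 0.54. The stress-inducible Hspa1a and Hsph1 rose by 3.88 and 3.39 (adjusted p = 7.45e-05 and 0.000151). In Th3/+ against wild type 2 of the 14 rose, Hspa1a by 3.05 and Hspa8 by 0.83 (adjusted p = 0.00482 for each). Hspa8, the constitutive HSP70 that Dnaja1 serves, rose by 1.53 in Th3/Th3 (adjusted p = 2.08e-05). By identifier its probe set falls between those of Dnajc30 and Dnajc2, which lie among chromosome 5 probe sets, as the Dnaja1 probe set does. A part of gene copies in the Hspa8 values was not tested. Hspa9, the mitochondrial HSP70, rose by 1.56 (adjusted p = 0.00387), while its partner Dnaja3 did not pass. Hspa5 (BiP), the partner of Dnajb9 in the endoplasmic reticulum, differed by -0.12 (adjusted p = 0.740). Of 10 nucleotide exchange factors, which release the client from HSP70, 2 rose, Bag3 by 2.61 and the mitochondrial Grpel1 by 0.91 (adjusted p = 8.72e-05 and 0.00313). Of 6 HSP70 adaptors 3 rose, Chordc1 by 2.62, Stip1 by 1.47 and St13 by 1.70 (adjusted p = 2.13e-05, 0.0004 and 0.00659). Of 4 tested J-domain or J-like genes of other names Pam16, of the mitochondrial import motor, rose by 0.67 (adjusted p = 0.00648), and the iron-sulfur cochaperone gene Hscb differed by -0.43 (adjusted p = 0.0585). By identifier the Pam16 probe set falls between those of Sec63 and Dnajb12, and that of Dnajb12 lies among chromosome 10 probe sets. A part of gene copies in the Pam16 values was not tested. Among the heat shock factors Hsf1 had no probe set of its own, Hsf2 and Hsf5 were not tested, and Hsf4 differed by 0.06 (adjusted p = 0.666).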

How the data were processed

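The deposited table holds 1 log2 value per probe set and array. The log2 scale is read from the range (1.78 to 14.3). MAS5 is named in the submitters' processing notes, and nothing further is given in the sources used here. Array medians were 4.95 to 5.01, and the values were used as deposited. Control probe sets (6617 of 35556, with identifiers below the first annotated one) were left out, which was decided with the table in view. A probe set was kept if its value exceeded the array's 40th percentile on 3 or more arrays (17742). Genes were named from the platform annotation. Limma 3.58.1 in R 4.3.3 fitted 1 mean per genotype to all 9 arrays (eBayes with trend, two-sided tests, Benjamini-Hochberg over the 17742), and a member was called at an adjusted p under 0.05. An exact permutation of 3 against 3 cannot go under 0.1. Arrays have no read depth, and their number limits the precision. On simulated data of Th3/Th3 against wild type, with 17742 probe sets, 30% of 1.5-fold, 80% of 2-fold, 86% of 3-fold and 96% of 4-fold changes were recovered. Of 159 calls 13 were on unchanged probe sets. Far fewer probe sets were changed in the simulation than were called in the data, so these shares need not hold for the data. The members, role groups, partner and marker lists, alternatives and the naming rule (array values for members past a test, up to 4 listed partner genes by smallest p, the rest by value or range) were chosen with earlier results of these data known. Array values of other members, such as Dnajc3 and Dnajc11, and the value of Hspa5 were added after they were seen.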

Additional observations from a re-analysis of the deposited data

How the results depend on the processing

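The count of DNAJ genes called in Th3/Th3 against wild type was 8, and it was 7 to 13 when 1 array at a time was left out and 14 without Th3/+ replicate 1 and Th3/Th3 replicate 1 together. Other settings gave 7 to 11. In Th3/+ against wild type the count was 0, and 1 with array weights. In Th3/Th3 against Th3/+ it was 4, and it was 7 with the stricter filter, 2 with Xist level as a covariate, 11 with array weights, 8 without Th3/+ replicate 1 and Th3/Th3 replicate 1 together, 2 with only the groups compared, and 2 to 9 when 1 array was left out. With the replicate number as a block it was 7, against 9 for Th3/Th3 against wild type. For Th3/+ against the midpoint the count was 0, and 1 with the stricter filter, with array weights and without Th3/Th3 replicate 1 (leaving out 1 array gave 0 to 1). Over all probe sets the counts were 2181 (1444 to 2552 under the alternatives) for Th3/Th3 and 5 (0 to 22) for Th3/+ against wild type, 1290 (585 to 1892) for Th3/Th3 against Th3/+ and 14 (1 to 213) for the midpoint. The cause of these moves was not tested. The labels do not say what a replicate number marks. Deviations from the group means correlated above 0.1 in 6 of 9 same-numbered pairs of arrays (-0.125 to 0.355) and in 4 of 18 other pairs (-0.352 to 0.252), so pairing was not taken as given, and not every array correlated best with its own number. The differences of Dnajb9 and Dnajb13 in Th3/+ against wild type changed sign. Dnajb9 ranged from -0.20 to 0.04 when 1 array was left out and Dnajb13 from -0.12 to 0.14, with 0.03 under array weights and 0.04 without both arrays that stood apart, where Dnaja4 in Th3/Th3 against Th3/+ was at -0.01. Dnaja1, Dnajb1, Dnajb6, Dnajb9, Dnajc17 and Dnajc24 kept their calls against wild type in all 20 alternatives tried for them.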
